A study of Homo sapiens with 4 samples.

Results

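RNA-seq of HaCaT cells, a human keratinocyte line spelled HaCAT in the labels, was analysed for the core genes of RNA interference and the microRNA pathway. The 10 genes were DROSHA, DGCR8, XPO5, DICER1, TARBP2, AGO1, AGO2, AGO3, AGO4 and TNRC6A. They were found by their symbols in the 2 deposited tables, in which each symbol had its row, out of 58735 listed genes. Cells of wild-type genotype were transfected with 200 pmol of siRNA by a lipid reagent, either normal control siRNA (siControl) or ALKBH5 knockdown siRNA (siALKBH5), with 2 libraries per group. ALKBH5 removes the m6A mark from RNA, and the study used these libraries to look for transcripts that depend on it. Every library, siControl included, came from cells that received an siRNA, and no untransfected library was analysed here. The siRNAs enter the very pathway described here, so the comparison was between cells given different siRNAs and not between cells with and without them.

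In this pathway the nuclear enzyme DROSHA, bound to DGCR8, cuts a hairpin out of a primary microRNA transcript. XPO5 carries the hairpin to the cytoplasm with the GTP-bound form of RAN, and DICER1, held by TARBP2, trims it to a short duplex. An Argonaute protein keeps a strand of the duplex as its guide, and TNRC6A bridges the Argonaute to the enzymes that shorten and silence the target mRNA. Synthetic siRNAs are made as short duplexes and reach the Argonautes without the DROSHA and DICER1 steps. In epidermis the pathway is known for its part in the balance between proliferation and differentiation of keratinocytes.

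The sequences that tie the experiment to this pathway are the strands of the siRNAs against ALKBH5 that the study lists, shown because each can be loaded as a guide. The study lists a pair of ALKBH5 siRNAs, and the labels do not say which was used for these libraries. Capitals mark the seed, bases 2 to 8 from the 5′ end, by which an Argonaute finds its targets.
ALKBH5-si1-antisense: uCGCCGAAgaaguacuugu
ALKBH5-si1-sense: aCAAGUACuucuucggcga
ALKBH5-si2-antisense: uAGUCGUUgaugacggcgc
ALKBH5-si2-sense: gCGCCGUCaucaacgacua
In the transcripts of GENCODE 29 on GRCh38, si1 matched chr17:18184635-18184653 and si2 matched chr17:18184809-18184827, both in the coding part of exon 1 of ALKBH5 and in no gene but ALKBH5. No core gene of the pathway therefore holds a full match to either siRNA. The sequence of the control siRNA was not used here.

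The libraries held between 16017502 and 18837807 counts on genes. Mitochondrial transcripts took 10.2% of the counts in siControl and 9.63% to 9.64% in siALKBH5. Levels are given as CPM, counts scaled to a common library size with TMM factors. ALKBH5 was at 93.8 and 87.6 CPM in siControl and at 51.2 and 49.6 CPM in siALKBH5. Its log2 fold change was -0.85 (standard error SE 0.053, adjusted p = 6.4e-15 by the quasi-likelihood test of edgeR), so the knockdown was partial and was seen in both libraries. All 8 keratinocyte markers, KRT5, KRT14 and KRT15 among them, were expressed, with a summed level of 30413 to 31508 CPM over the 4 libraries. Of these 3 rose and 3 fell at an adjusted p under 0.05, which 36.6% of all genes tested passed. KRT5 was at a log2 fold change of 0.68 and KRT15 at -0.48 (edgeR adjusted p = 1.4e-27 and 3.4e-26). KRT14 and SFN were both at 0.22, and TP63, ITGA6, CDH1 and DSG3 lay between -0.091 and -0.040. Of 8 fibroblast markers 5 had no more than 3 counts in any library, with COL1A2, PDGFRA, PDGFRB and THY1 at 0, and the summed level was 21.9 to 22.8 CPM in siControl and 18.7 to 19.1 CPM in siALKBH5. Melanocyte markers summed to 11.99 to 14.2 CPM, most of it from MITF. MITF had 163 to 198 counts and PMEL 38 to 61, with TYR and TYRP1 at 0. Immune markers summed to 4.59 to 6.53 CPM.

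All 10 genes were expressed, with 367 to 1646 counts in a library, and all passed the filter on low counts. Of these, XPO5 rose, DICER1, AGO3, AGO4 and TARBP2 fell, and AGO1, AGO2, DROSHA, DGCR8 and TNRC6A did not pass the test at an adjusted p under 0.05. The changes were small. The genes that fell kept 81.6% to 85.1% of their siControl level, and XPO5 stood at 124% of it. Over the whole table, 36.6% of the 15075 genes tested passed the same threshold, 19.3% as higher and 17.3% as lower. The 5 of 10 called here are to be read against that share, and no test was run on the genes as a group. Their median log2 fold change was -0.14, against -0.0081 over all genes tested. The study's own threshold adds a log2 fold change of 1 or more in size, which 2.92% of the tested genes met. By edgeR's test 0 of the 10 genes met it, although 6 of 10 had an unadjusted p under 0.05, and DESeq2 also gave 0. In all 10 genes the CPM of the siControl libraries did not overlap with those of the siALKBH5 libraries, which held for 66.3% of the genes tested. With 2 libraries against 2, an exact permutation test cannot give a p below 0.333, so the calls rest on the spread that edgeR estimates across genes. The labels do not say whether the libraries of a group came from separate cultures, so the p-values measure only the spread between these libraries, which may be technical. In RNA from whole cultures, fewer cells that express a gene and less RNA of that gene per cell cannot be told apart.

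**Figure D1:**
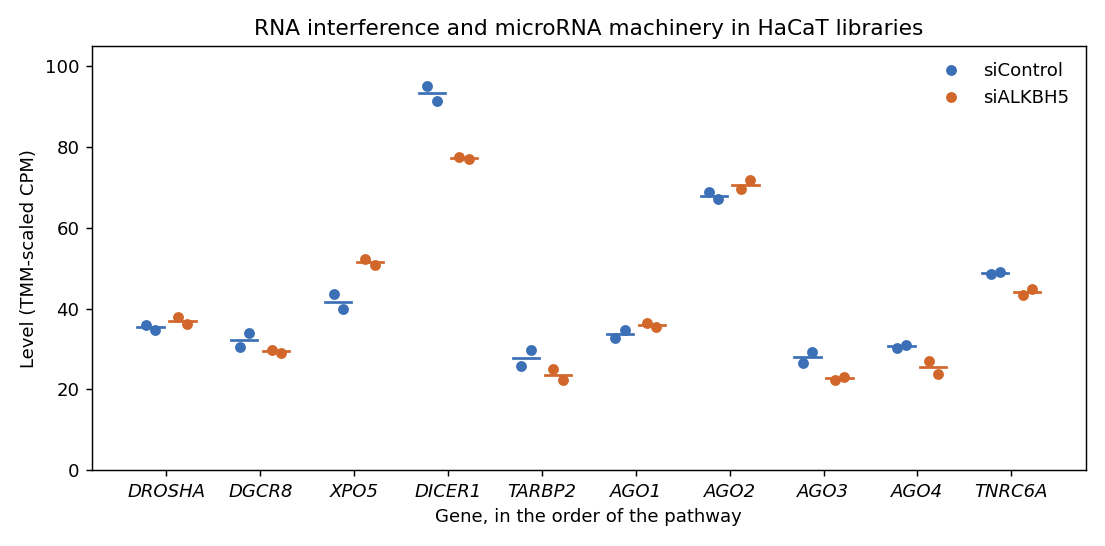
Level of each core gene in the 4 libraries, in TMM-scaled CPM on a linear axis from 0, with a point per library and a bar at the mean of the 2 libraries of a group. DICER1 sits at 95.02 and 91.5 CPM in siControl and at 77.5 and 77.1 CPM in siALKBH5, and XPO5 is the gene whose siALKBH5 points lie clearly above its siControl points.

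The nuclear step came out with no call. DROSHA, the RNase III enzyme that makes the first cut, lies on chromosome 5 from 31400497 to 31532196 on the minus strand. It was at 36.1 and 34.7 CPM in siControl and at 37.9 and 36.1 CPM in siALKBH5. The higher siControl library and the lower siALKBH5 library lay side by side. Its log2 fold change was 0.066 (SE 0.070, edgeR adjusted p = 0.50), with a 95% interval from -0.077 to 0.21.

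DGCR8, the double-stranded RNA binding partner that positions DROSHA on the hairpin, lies on chromosome 22 from 20080232 to 20111877. It was at 30.6 and 33.8 CPM in siControl and at 29.8 and 29.1 CPM in siALKBH5. The siControl libraries differed from each other by more than the nearest siControl and siALKBH5 libraries did. Its log2 fold change came to -0.13 (SE 0.077, edgeR adjusted p = 0.19), and the 95% interval ran from -0.29 to 0.026. The antisense gene AC006547.2 shares 526 exonic bases with DGCR8, 7.19% of the exonic bases of DGCR8, and had 0 counts in every library. TRMT2A on the opposite strand shares 12 exonic bases with DGCR8.

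The DGCR8 transcript itself carries microRNA hairpins, which the DROSHA and DGCR8 complex is known to cut out of it. Their mature sequences from RefSeq on GRCh38.p14 are shown because they place a substrate of the complex inside the mRNA of its own subunit, with the seed in capitals.
hsa-miR-3618: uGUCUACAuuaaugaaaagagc
hsa-miR-1306-5p: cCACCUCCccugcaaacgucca
hsa-miR-1306-3p: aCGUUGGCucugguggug
The first lies at chr22:20085797-20085818, in the 5′ untranslated part of exon 2, and the pair from the other hairpin lies at chr22:20086072-20086093 and chr22:20086112-20086129, in the coding part of the same exon. The listed genes MIR3618 and MIR1306 had 0 counts in each of the 4 libraries, which allows up to 3 counts in a library. These are poly-A libraries, and how reads that fall in both a hairpin gene and DGCR8 were counted is not given in the sources used here, so the zeros do not measure the microRNAs.

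XPO5, the exportin for hairpin precursors, was the only one of the 10 genes that rose. It lies on chromosome 6 from 43522330 to 43576075 on the minus strand. The siControl libraries stood at 43.6 and 39.9 CPM and the siALKBH5 libraries at 52.4 and 50.8 CPM. Both siALKBH5 libraries were above both siControl libraries, and the gap of the nearest pair was larger than the distance within either group. That gave a log2 fold change of 0.31 (SE 0.064, edgeR adjusted p = 0.00023), with a 95% interval from 0.18 to 0.44. With each library left out in turn it stayed between 0.24 and 0.38 and kept its call. POLR1C on the opposite strand shares 348 exonic bases with XPO5, 4.08% of the exonic bases of XPO5. Whether the counting used strand is not given in the sources used here. The counts of POLR1C were 264 and 320 in siControl against 297 and 256 in siALKBH5, with a log2 fold change of -0.12 (edgeR adjusted p = 0.40).

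DICER1, the cytoplasmic enzyme that trims the precursor, had the highest level of the 10 genes and fell with the smallest p-value. It lies on chromosome 14 from 95086228 to 95158010 on the minus strand. The counts were 1531 and 1646 in siControl and 1448 and 1268 in siALKBH5, which gave 95.02 and 91.5 CPM against 77.5 and 77.1 CPM. The siALKBH5 libraries were nearly equal and both lay far below the siControl libraries. Its change on the log2 scale was -0.27 (SE 0.046, edgeR adjusted p = 1.4e-05), with a 95% interval from -0.36 to -0.18. Leaving out each library in turn gave -0.30 to -0.24 and kept the call. The antisense gene DICER1-AS1 shares 80 exonic bases with it with 44 and 68 counts in siControl against 48 and 35 in siALKBH5 (log2 fold change -0.47, edgeR adjusted p = 0.16).

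TARBP2, the double-stranded RNA binding protein that works beside DICER1, had the least firm of the called changes. It lies on chromosome 12 from 53500921 to 53506431. Its libraries stood at 25.8 and 29.7 CPM in siControl and at 24.9 and 22.3 CPM in siALKBH5. The lower siControl library and the higher siALKBH5 library nearly met, and the libraries of the same replicate number differed by -0.049 in replicate 1 and by -0.41 in replicate 2 on the log2 scale. In log2 terms the change was -0.23 (SE 0.088, edgeR adjusted p = 0.036). Without siControl replicate 2 it was -0.13 with an adjusted p of 0.43 from edgeR, and without siALKBH5 replicate 2 it was -0.15 with an adjusted p of 0.26, over a range of 0.0098 to 0.43 with each library left out. DESeq2 gave an adjusted p of 0.21.

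**Figure D2:**
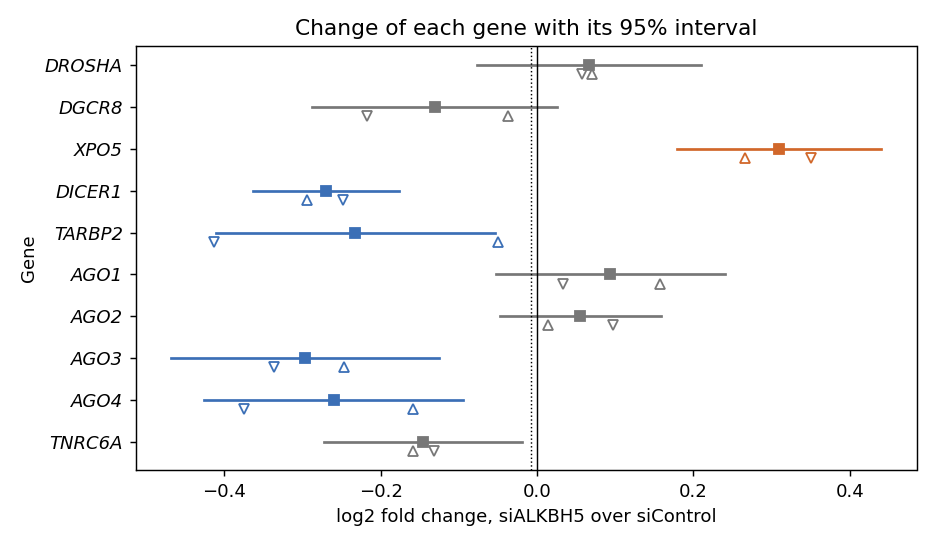
Log2 fold change of siALKBH5 over siControl for each core gene, with squares for the estimate over all 4 libraries, lines for its 95% interval, and upward and downward triangles for the libraries of replicate number 1 and 2 alone. Orange marks an adjusted p under 0.05 with a higher level, blue one with a lower level and grey no call, the dotted line is the median of all genes tested at -0.0081, and the intervals of AGO1, AGO2, DROSHA and DGCR8 hold 0.

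The 4 Argonaute genes, whose proteins hold the guide strand, gave unlike results. AGO2, which alone is widely known to cut a fully paired target, lies on chromosome 8 from 140520156 to 140635619 on the minus strand. It was at 68.8 and 67.0 CPM in siControl and at 69.5 and 71.7 CPM in siALKBH5. All 4 libraries lay close together. The log2 fold change was 0.055 (SE 0.051, edgeR adjusted p = 0.43), with a 95% interval from -0.048 to 0.16.

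AGO1 lies on chromosome 1 from 35869808 to 35930528. Its level was 32.7 and 34.6 CPM in siControl and 36.5 and 35.4 CPM in siALKBH5. The siALKBH5 libraries were a little higher, with a log2 fold change of 0.094 (SE 0.072, edgeR adjusted p = 0.33) and a 95% interval from -0.052 to 0.24. The lincRNA AL139286.2 on the opposite strand shares 396 exonic bases with AGO1, 2.85% of its exonic bases, and had 0 counts in every library.

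AGO3 lies next to AGO1 on chromosome 1, from 35930718 to 36072500. It was at 26.6 and 29.2 CPM in siControl and at 22.4 and 23.2 CPM in siALKBH5. The siALKBH5 libraries both lay under the lower siControl library. Its log2 fold change came to -0.30 (SE 0.084, edgeR adjusted p = 0.0056), the lowest of the 10 genes, with a 95% interval from -0.47 to -0.12. Without siControl replicate 2 it was -0.23 with an adjusted p of 0.11 from edgeR, the highest with a library left out (lowest 0.0043), and DESeq2 gave 0.083. Of the 50-base words in AGO3 transcripts, 1.26% also occur in other genes, none of them a core gene.

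AGO4 lies on chromosome 1 from 35808172 to 35857890, and its libraries stood at 30.3 and 31.0 CPM in siControl and at 27.1 and 23.9 CPM in siALKBH5. The siControl libraries were nearly equal, and the siALKBH5 libraries lay below them and further apart. That gave a log2 fold change of -0.26 (SE 0.081, edgeR adjusted p = 0.012), with a 95% interval from -0.43 to -0.094. The call was lost without siALKBH5 replicate 2, where the log2 fold change was -0.17 and the adjusted p 0.18 from edgeR, and without siControl replicate 2, where they were -0.24 and 0.056 (lowest adjusted p with a library left out 0.0036). DESeq2 gave an adjusted p of 0.12.

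AGO4, AGO1 and AGO3 follow each other on the plus strand of chromosome 1 within 264329 bases. Between the end of AGO4 and the start of AGO1 lie 11917 bases, and between AGO1 and AGO3 only 189 bases. The gene in the middle, AGO1, had a log2 fold change above 0 and its neighbours on both sides fell. Whether the change of AGO1 differs from that of its neighbours was not tested.

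Set per length, the Argonaute transcripts also differed in what share each made up. The measure was FPKM, fragments per kilobase of the listed gene length, scaled to the library total and recomputed from the counts so that all 4 libraries shared a scale. AGO2 made up 35.8% and 34.2% of the summed Argonaute FPKM in siControl and 37.2% and 39.5% in siALKBH5. AGO4 went from 34.4% in both siControl libraries to 31.6% and 28.7%. AGO1 stood at 19.4% and 20.2% in siControl and at 22.2% and 22.3% in siALKBH5, and AGO3 at 10.4% and 11.2% and then at 8.98% and 9.55%. For each of the 4 genes the shares of the groups did not overlap. In CPM the groups did not overlap for 66.3% of all genes tested, and AGO1 and AGO2 had no call. The sum itself was 12.2 and 12.4 FPKM in siControl and 11.7 and 11.3 FPKM in siALKBH5. The shares add to a whole, so they do not move independently, and the smallest p that an exact permutation test allows here is 0.333.

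**Figure D3:**
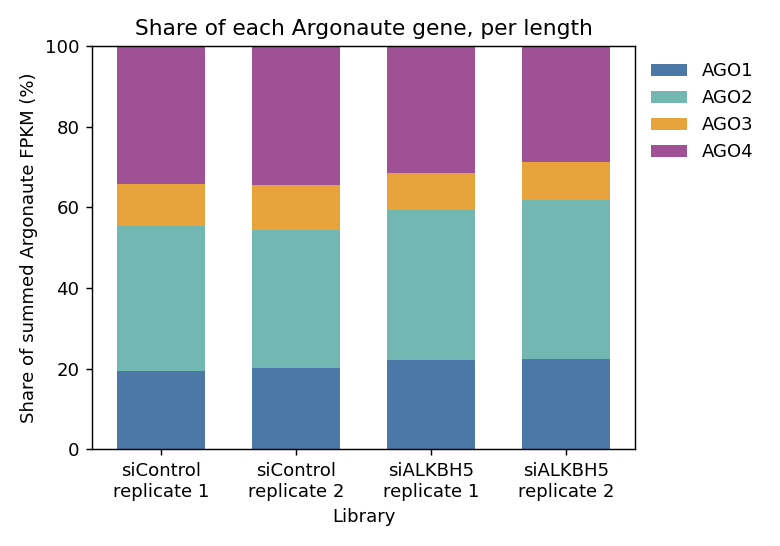
Share of each Argonaute gene in the summed FPKM of AGO1, AGO2, AGO3 and AGO4, in percent, with a stacked bar per library. The AGO4 segment shrinks from 34.4% in both siControl libraries to 31.6% and 28.7% in the siALKBH5 libraries, and AGO3 is the smallest segment in all 4.

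TNRC6A, a scaffold of the GW182 family that links Argonautes to the deadenylases, lies on chromosome 16 from 24610209 to 24827632. It was at 48.5 and 49.1 CPM in siControl and at 43.5 and 44.8 CPM in siALKBH5. The groups stood well apart relative to the spread within them. Its change on the log2 scale was -0.15 (SE 0.062) and missed the threshold, with an adjusted p of 0.064 from edgeR, although its 95% interval from -0.27 to -0.020 leaves out 0. With library totals alone as the scaling, which moved the median of all genes from -0.0081 to -0.030, the adjusted p was 0.032.

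Ordered by level per length, DICER1 came first in siControl with 7.63 ± 0.202 FPKM (SD, n = 2), before TARBP2 with 6.83 ± 0.674 FPKM and XPO5 with 4.92 ± 0.309 FPKM. DROSHA with 4.57, DGCR8 with 4.43, AGO2 with 4.32 and AGO4 with 4.24 FPKM followed, and neighbours in this run overlapped in their libraries. TNRC6A with 3.80, AGO1 with 2.44 and AGO3 with 1.33 FPKM closed the order, each without overlap with the gene before it. In siALKBH5 the first place was again that of DICER1 with 6.23 ± 0.0325 FPKM, and XPO5 with 5.998 ± 0.134 FPKM was level with TARBP2 at 5.72 ± 0.459 FPKM, whose libraries overlapped. AGO4 at 3.48 FPKM and TNRC6A at 3.38 FPKM also overlapped there, and AGO3 was again last at 1.07 FPKM. The gene lengths are those of the deposited tables, so transcripts with long untranslated regions count as long.

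The untranslated regions of the Argonaute genes are long. The longest annotated 3′UTR was 16755 bases in AGO3, 11888 in AGO2, 10921 in AGO1 and 4285 in AGO4, against a median of 1104 bases over the 19133 genes with one. DICER1 had 4270 bases, TNRC6A 2420, DGCR8 1767, XPO5 1538, DROSHA 935 and TARBP2 450. Longer regions hold any short word more often, so the matches given next are descriptions.

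Seed matches of the siRNAs were searched in these 3′UTRs on the mRNA strand, as the 7 letters that pair with the seed. The letters AACGACT for the antisense strand of si2 were found in AGO3 alone of the 10 genes and in 1.41% of all 3′UTRs. TTCGGCG for the antisense strand of si1 was found in AGO2 alone and in 0.418% of all. GTACTTG for the sense strand of si1 was in each of the 4 Argonaute genes and in 7.92% of all, and GACGGCG for the sense strand of si2 was in none of the 10 and in 0.878% of all. The site of the si2 antisense seed in AGO3 starts at base 4788 of the 3′UTR, at chr1:36060533-36060539 of GRCh38, and is shown with its flanks because AGO3 was the gene with the lowest log2 fold change. The sites of the si1 sense seed in AGO1, AGO3 and AGO4 lie at chr1:35924105-35924111, chr1:36065768-36065774 and chr1:35854879-35854885. Capitals mark the match.
AGO3, si2 antisense: ttcaagaagcaAACGACTtcgatacagcta
AGO1, si1 sense: cccacagctgtGTACTTGtttgcatttgtt
AGO3, si1 sense: accgcagtgaaGTACTTGatggcttgttca
AGO4, si1 sense: cgacatgaaatGTACTTGgtgggttttcct
Of the genes with a match to any of the 4 strands, AGO3 and AGO4 fell and AGO1 and AGO2 had no call. DICER1 and TARBP2 fell without a match to any of them. What part these matches had in the changes was not tested.

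The letters GGACT, the most common core of an m6A site, were present in the 3′UTR of 9 of the 10 genes, all but DROSHA, and in 58.5% of all 3′UTRs. AGO1 held 12, AGO3 10, AGO2 8 and AGO4 5 of them, DGCR8 held 3, TARBP2 and XPO5 2 each and DICER1 and TNRC6A a single one. Per kilobase DROSHA was at 0, and the 9 genes with a site ran from 0.234 in DICER1 to 4.44 in TARBP2, whose 3′UTR is short. Over all 3′UTRs, with or without a site, the value was 0.831. Of the genes that fell, DICER1 stood at 0.234, AGO3 at 0.597, AGO4 at 1.17 and TARBP2 at 4.44 per kilobase. XPO5, which rose, stood at 1.3. The presence of the letters does not show that a site is methylated, and no methylation data were analysed here.

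The RAN genes that work with XPO5 in export were also counted, listed as export partners together with the other exportins XPO1 and XPOT. Of 6 export partners 5 rose and all 6 had a log2 fold change above 0, with a median of 0.49. The shares over all genes tested, 19.3% higher and 17.3% lower, belong beside this count and those of the lists below. RANBP1, a regulator of RAN, rose most, by a log2 fold change of 0.65 (SE 0.052, edgeR adjusted p = 3e-12), from 950 and 972 counts in siControl to 1676 and 1438 in siALKBH5. RAN itself, the GTPase that loads XPO5 with its cargo, had a log2 fold change of 0.47 and 2802, 3051, 4495 and 3860 counts in the siControl and then the siALKBH5 libraries. XPO1, the general exportin for proteins, had the smallest of the called changes at 0.21, and XPOT, the exportin for tRNAs, was at 0.10 with an adjusted p of 0.17 from edgeR. RCC1 and RANGAP1, which charge and discharge RAN, were at 0.51 and 0.54. None of these 6 genes is particular to the export of microRNA precursors.

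Around DROSHA and DGCR8, 1 of 14 processing cofactors rose and 3 fell, with a median of -0.050. The shares over all genes tested were 19.3% higher and 17.3% lower. SRSF3, a splicing factor that marks primary microRNAs, was the highest at 0.30 (SE 0.032, edgeR adjusted p = 1.8e-09), and NCBP2 of the nuclear cap-binding complex the lowest at -0.21 (SE 0.053, adjusted p = 0.0025). The helicases DDX5 and DDX17, known parts of the DROSHA complex, both fell, by 0.078 and 0.17 on the log2 scale. The call of DDX5 was lost with DESeq2 and without siControl replicate 2 or siALKBH5 replicate 2 (adjusted p = 0.22, 0.49 and 0.30), and that of NCBP2 was lost with DESeq2 and without siControl replicate 2 (0.053 and 0.054). Among the partners of DICER1 and the enzymes that add tails to precursors, 1 of 7 tested rose and 3 fell, with a median of 0.047. TSNAX, which with TSN forms a nuclease that removes the passenger strand, fell by 0.53 on the log2 scale (SE 0.086, edgeR adjusted p = 6.8e-06), and ADAR, an RNA editing enzyme, rose by 0.083. ADAR lost its call with DESeq2 (adjusted p = 0.12) and without siControl replicate 1, siALKBH5 replicate 1 or siALKBH5 replicate 2 (0.20, 0.075 and 0.056). PRKRA, the other double-stranded RNA binding partner of DICER1, was at 0.047 with an adjusted p of 0.72 from edgeR, and LIN28A and LIN28B did not pass the filter.

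Of the genes for Argonaute loading, 5 of 9 tested rose and 1 fell, with a median of 0.12. Again 19.3% of all genes tested were higher and 17.3% lower. HSP90AB1, a chaperone of the complex that opens Argonaute for the duplex, rose by 0.62 on the log2 scale (SE 0.021, edgeR adjusted p = 3.3e-22) from 12638 and 14408 counts to 22332 and 20292, whereas DNAJA2, a co-chaperone, fell by 0.15. The call of DNAJA2 was lost with DESeq2 (adjusted p = 0.078), without siControl replicate 2 (0.13) and without siALKBH5 replicate 2 (0.068). These chaperones fold many other proteins. In the silencing step downstream of TNRC6A, 6 of 14 tested genes rose and 3 fell, with a median of 0.098. EDC4 of the decapping complex was the highest of these at 0.30 and PAN3 of a deadenylase the lowest at -0.25. PAN3 lost its call with DESeq2 (adjusted p = 0.060), without siControl replicate 2 (0.060) and without siALKBH5 replicate 2, where its log2 fold change was -0.14 (0.16). TNRC6B, the sister scaffold of TNRC6A, went from 582 and 644 counts to 778 and 670, with a log2 fold change of 0.20 (SE 0.068, edgeR adjusted p = 0.022). That call was lost with DESeq2 (adjusted p = 0.15) and without siControl replicate 1, siControl replicate 2 or siALKBH5 replicate 1, where the adjusted p was 0.065, 0.10 and 0.12. TNRC6C had only 14 to 32 counts. Of 10 genes for the turnover of microRNAs 3 rose and 3 fell, with SND1 highest at 0.26 and TENT4B lowest at -0.31 and a median of 0.10. TENT4B had no call with DESeq2 (adjusted p = 0.11), without siControl replicate 1 (0.098) and without siALKBH5 replicate 1 (0.071). The PIWI genes, Argonaute relatives of the germ line, had at most 12 counts in a library and 0 of 4 passed the filter.

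In all, 60 of these 64 further genes were tested, of which 21 rose, 13 fell and 26 had no call, with a median log2 fold change of 0.054. Of all genes tested, 19.3% were higher and 17.3% lower. The lists were chosen with earlier results of these data known, and no list was tested as a group. The fibroblast markers DCN and LUM fell by 1.25 and 1.08 on the log2 scale at low counts (71 at most), whereas COL1A1, the most abundant fibroblast marker with 267 to 310 counts, was at -0.043 (edgeR adjusted p = 0.79). Of 7 immune markers 2 were tested. CD14 rose by 0.64 at 34 to 74 counts (edgeR adjusted p = 0.034), and CD74 was at -0.28 with 26 to 46 counts (edgeR adjusted p = 0.50). The part of these cell type markers in any change given here was not tested.

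**Figure D4:**
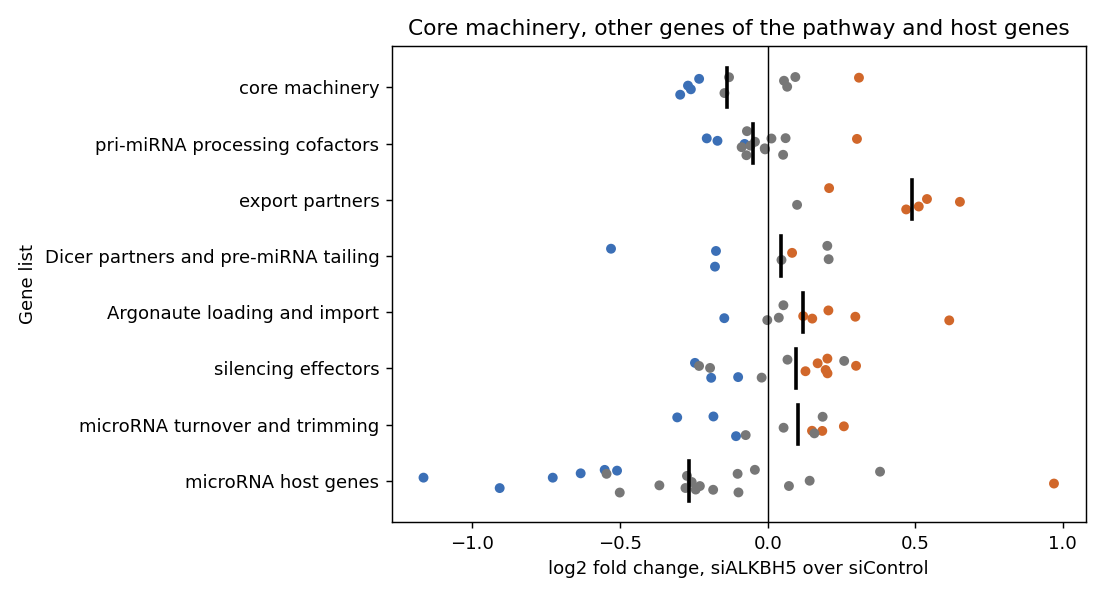
Log2 fold change of siALKBH5 over siControl for the genes tested in each list, with a point per gene, orange for higher and blue for lower at an adjusted p under 0.05, grey for no call and a black bar at the median of the list. The bar of the core machinery sits at -0.14, that of the export partners at 0.49 and that of the microRNA host genes at -0.27.

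Poly-A RNA-seq does not measure mature microRNAs, but it does count polyadenylated RNA of genes that host some of them. Whether the microRNAs lie in exons or introns of these hosts was not examined. The counted RNA is therefore not shown to be a substrate of DROSHA and DGCR8. Of 62 listed genes whose symbols mark them as microRNA host genes, 22 were tested, 1 rose and 6 fell, with a median log2 fold change of -0.27, beside 19.3% higher and 17.3% lower over the whole table. Those that fell were MIRLET7BHG, MIR200CHG, MIR210HG, MIR22HG, MIR205HG and MIR222HG, with log2 fold changes of -1.17, -0.91, -0.73, -0.63, -0.55 and -0.51. MIR200CHG had 37 and 79 counts in siControl against 30 and 33 in siALKBH5 (SE 0.29, edgeR adjusted p = 0.014). MIR222HG had 161 and 158 counts in siControl against 99 and 131 in siALKBH5 (SE 0.16, edgeR adjusted p = 0.013). Its libraries differed by -0.91 in replicate 1 and by -0.14 in replicate 2 on the log2 scale. DESeq2 called 4 host genes lower, against 6 with edgeR. Summed over all 62 listed host genes, the level was 682 and 683 CPM in siControl and 484 and 487 CPM in siALKBH5, most of it from MIR205HG. MIR205HG, the host of a microRNA known from epithelia, went from 8733 and 9674 counts in siControl to 6898 and 6039 in siALKBH5. The groups did not overlap, with a log2 fold change of -0.55 (SE 0.024, edgeR adjusted p = 6.4e-19). MIRLET7BHG was the lowest, with 121 and 133 counts in siControl against 77 and 40. Its siALKBH5 libraries differed from each other, and the log2 fold change was -1.17 (SE 0.20, edgeR adjusted p = 1.3e-05), or -1.61 without siALKBH5 replicate 1 and -0.85 without siALKBH5 replicate 2. MIR100HG was the one that rose, from 27 and 37 counts to 65 and 64, with a log2 fold change of 0.97 (SE 0.26, edgeR adjusted p = 0.0030). The level of a host transcript reflects how much is made, how much decays and how much, if any, is cut. The counts do not separate these.

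The mature microRNAs of these hosts, from RefSeq on GRCh38.p14, are shown for the host with the highest level, the host that rose and the host that fell most, with the seed in capitals.
hsa-let-7b-5p, from MIRLET7BHG: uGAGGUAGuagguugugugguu
hsa-let-7a-5p, from MIRLET7BHG and MIR100HG: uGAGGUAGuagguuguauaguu
hsa-miR-100-5p, from MIR100HG: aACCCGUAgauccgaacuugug
hsa-miR-205-5p, from MIR205HG: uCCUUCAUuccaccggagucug
The let-7 seed GAGGUAG is carried by MIRLET7BHG, which fell, by MIR100HG, which rose, and also by microRNAs of MIR99AHG and MIR4458HG, which had no call (edgeR adjusted p = 0.69 and 0.87). The hosts MIR22HG, MIR210HG, MIR222HG, MIR200CHG and MIR205HG carry other seeds. A match to it, CTACCTC, was found in the 3′UTR of 4 of the 10 core genes and in 9.71% of all 3′UTRs. AGO2 held 2 of these matches, and AGO1, AGO3 and TARBP2 held 1 each, at chr1:35920692-35920698, chr1:36069088-36069094 and chr12:53506251-53506257. Their sites are shown with capitals for the match.
AGO1, let-7: ccttattcctcCTACCTCccgccccgccca
AGO3, let-7: cctgtcctcacCTACCTCactaaattgttg
TARBP2, let-7: gggtgccatctCTACCTCtgacacagactg
Of these genes AGO3 and TARBP2 fell and AGO1 and AGO2 had no call, and the abundance of let-7 was not measured.

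**Figure D5:**
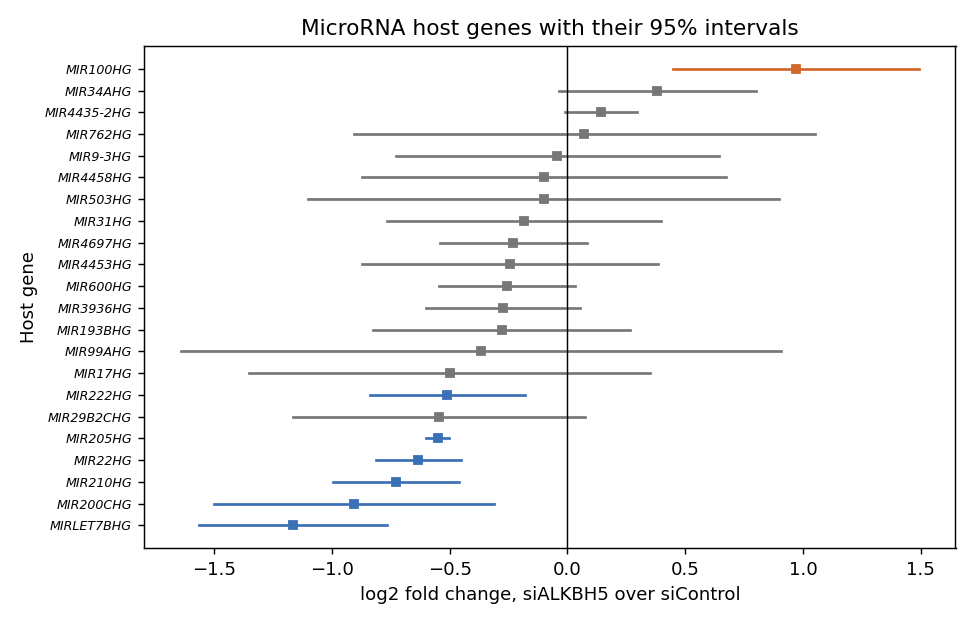
Log2 fold change of siALKBH5 over siControl with its 95% interval for the 22 microRNA host genes tested, orange for higher, blue for lower and grey for no call at an adjusted p under 0.05. MIRLET7BHG is lowest at -1.17, MIR100HG highest at 0.97, and MIR205HG has the narrowest interval.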

How the data were processed

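From poly-A RNA libraries the authors deposited 2 tables of raw counts per gene and FPKM, and the submitters' notes name HISAT2 2.0.5, featureCounts 1.5.0-p3, DESeq2 1.20.0 and hg38. The deposited counts carry no normalization. As deposited, FPKM carry a scaling made table by table and stood at a constant 0.986 to 1.01 times the FPKM recomputed from counts and library totals, which were used here. Columns with the authors' own comparisons were not used. Of 58735 genes, 58724 matched GENCODE 29 in position and strand.

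The 4 libraries entered the quasi-likelihood test of edgeR 4.0.16 (R 4.3.3) after filterByExpr and TMM scaling, with no covariates and Benjamini-Hochberg adjustment over 15075 genes, where edgeR estimated a common biological coefficient of variation of 0.0253. Duplicates differed beyond sampling noise, with a chi-square per degree of freedom of 1.74 and 1.85. Alternatives were DESeq2 1.42.0, other scalings and filters, a fold threshold of 1.2, a fixed coefficient of variation of 0.2, the replicate number as a block, each library left out and, added after seeing the data, no mitochondrial genes. Steps were tested on simulated data.

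The members and lists were chosen with earlier results of these data known. Named genes are the 10 core genes, ALKBH5, the highest and lowest called gene of each list with at most 2 more for their role, the host gene with the highest level, and genes that overlap a core gene. RCC1, RANGAP1, TSN, LIN28A, LIN28B, the cell type markers and the further host genes were also named after their values were seen. Seed and motif words were searched in the longest 3′UTR of each protein-coding gene. A count of 3 was the floor, for counting error only.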

Additional observations from a re-analysis of the deposited data

How the results depend on the processing

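Each of the 10 core genes was refitted under 13 alternatives. Of these 130 values 110 kept their side of the threshold, 19 lost the call, 1 gained it and 0 changed direction. DICER1 and XPO5 lost their call only with the fold threshold of 1.2 and with the exact test at a fixed coefficient of variation of 0.2, under which 0 core genes were higher and 0 lower. The number of core genes that fell was 1 with DESeq2, and between 1 (without siControl replicate 2) and 4 with each library left out (2 without siALKBH5 replicate 2). Among the other pathway genes the number higher was 5 with the fold threshold and 0 with the exact test, and the number lower was 3 with DESeq2, 1 with the fold threshold, 0 with the exact test, and between 5 (without siControl replicate 2) and 11 (without siControl replicate 1) with each library left out (8 without siALKBH5 replicate 1). With DESeq2 1 host gene was higher and 4 were lower. With the exact test 0 host genes were higher and 1 lower, and ALKBH5 was at -0.85 with an adjusted p of 0.17. That test called 1.03% of all genes, the fold threshold 9.0% and DESeq2 25.4%. The causes of these losses were not tested.

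The replicate numbers were not shown to pair the libraries (correlation of deviations 0.049 over 15075 genes). With the replicate number as a block, 1 core gene was higher and 4 lower, and over all genes 3091 were higher and 2831 lower. The authors' FPKM differed from the recomputed ones by at most 1.43%, which moved 3 of the 40 levels by more than the SD of their group, TNRC6A in siControl replicate 1 (3.72 from 3.78) and DICER1 in both siALKBH5 libraries (6.34 from 6.25 and 6.24 from 6.21). Strand, guide loading and mature microRNAs were not measured.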
